A study of Mus musculus with 2 samples.

Results

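Mir126a (ENSMUSG00000065540.1) and Mir126b (ENSMUSG00000105799.1) are a pair of mouse miRNA genes that occupy the same stretch of chromosome 2 on opposite strands, inside Egfl7. They were chosen by gene symbol, through the GENCODE M21 annotation, and not by any measured value, and they are 2 of the 2202 miRNA genes in the tables. They were measured by microRNA-seq, the sequencing of short RNA inserts (under 30 nt per the labels) selected out of total RNA, in hearts of 2 female mice aged 10 days. These B6CASTF1/J mice are hybrids, the F1 generation of a cross between C57BL/6J and CAST/EiJ, and the labels name no treatment. The hearts are biological replicates 2 and 1 of 1 group, each with its own biosample and 1 library, and the labels number the females apart. Both biosamples list the same donor entry, however, and every n = 2, SD and value between hearts below takes them as separate animals. There is no second condition, so levels, strands and the difference between the hearts are described, and a test on the reads compares these libraries and not conditions. Levels are counts on the gene strand, given as counts per 1000000 (CPM) of the library's counts on all named miRNA genes.

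A miRNA guides an Argonaute protein to messenger RNAs that pair with its seed, the bases near its 5′ end, and lowers their translation and stability. The miR-126 of Mir126a is known from endothelial cells, the lining of vessels. In mouse and zebrafish its loss weakens vessel walls, and Spred1, an inhibitor of growth factor signalling through Ras and MAP kinase, is among its reported targets. Egfl7, its host gene, encodes a secreted factor of endothelial cells.

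The mature arms below show how the members differ in the bases that select targets. They are from RefSeq (GRCm38.p6), which matched both genes by symbol, and capitals mark the seed, bases 2 to 8. RefSeq holds no separate entry for the other arm of Mir126a. That arm is therefore left out of this comparison and of the UTR searches below.
miR-126a-3p: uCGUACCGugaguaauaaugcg
miR-126b-3p: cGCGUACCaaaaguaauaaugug
miR-126b-5p: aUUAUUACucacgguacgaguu
The seeds differ among the 3 arms, and none of them is held by another of the 1738 mature miRNAs in that table, as was so for 1211 of its 1398 distinct seeds. Aligned without gaps, miR-126a-3p and miR-126b-3p were identical at 17 of 22 bases, and the 3p seed of Mir126b is shifted by 1 base against that of Mir126a. miR-126b-5p is the reverse complement of miR-126a-3p over a run of 19 bases, because both arms come from the same DNA.

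The hairpins show how the genes overlap, with capitals for the mature arms that RefSeq lists.
Mir126a, chr2:26591357-26591429, plus strand: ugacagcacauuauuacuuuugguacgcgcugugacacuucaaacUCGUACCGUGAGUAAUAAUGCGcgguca
Mir126b, chr2:26591363-26591420, minus strand: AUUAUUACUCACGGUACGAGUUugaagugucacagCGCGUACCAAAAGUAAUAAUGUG
The coordinates are those of M21 on mm10, where both genes have the same positions as in RefSeq. All 58 bases of Mir126b lie within the 73 bases of Mir126a, which extends 6 bases beyond it at the 5′ end and 9 at the 3′ end. Both arms of the Mir126a hairpin therefore overlap Mir126b, and the gene counts do not separate them. Read in the same sense, the hairpins shared no run longer than 10 bases. Among the other 2200 miRNA genes, the longest run shared with the Mir126a hairpin on either strand was 12 bases, with Mir6405, so no near-identical copy was found among miRNA genes (the rest of the genome was not searched). Folded with ViennaRNA, the Mir126a hairpin reached a minimum free energy of -31.2 kcal/mol with 27 base pairs, and the Mir126b hairpin -19.3 kcal/mol with 21 base pairs. Per base this was -0.427 for Mir126a and -0.333 for Mir126b, against a median of -0.437 over the hairpins of the 346 genes detected at 10 or more counts in both hearts. The annotated Mir126b hairpin starts and ends with its mature arms and was folded without flanking bases, so the energies of the members cover unlike extents.

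Egfl7 spans chr2:26580014-26593120 on the plus strand, the strand of Mir126a. In a protein-coding Egfl7 transcript of 10 exons, Mir126a lies in the intron of 600 bases between exons 7 and 8, 293 bases after the first of these and 234 bases before the second. Of the 19 annotated Egfl7 transcripts, Mir126a was intronic in 8 and exonic in 1, whose annotated type is retained intron. The other 10 do not reach over it. Mir126b lies antisense to the same intron. The nearest other miRNA gene, Mir6996, is 121238 bases away and had 1 count in replicate 2 and 7 in replicate 1.

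**Figure D1:**
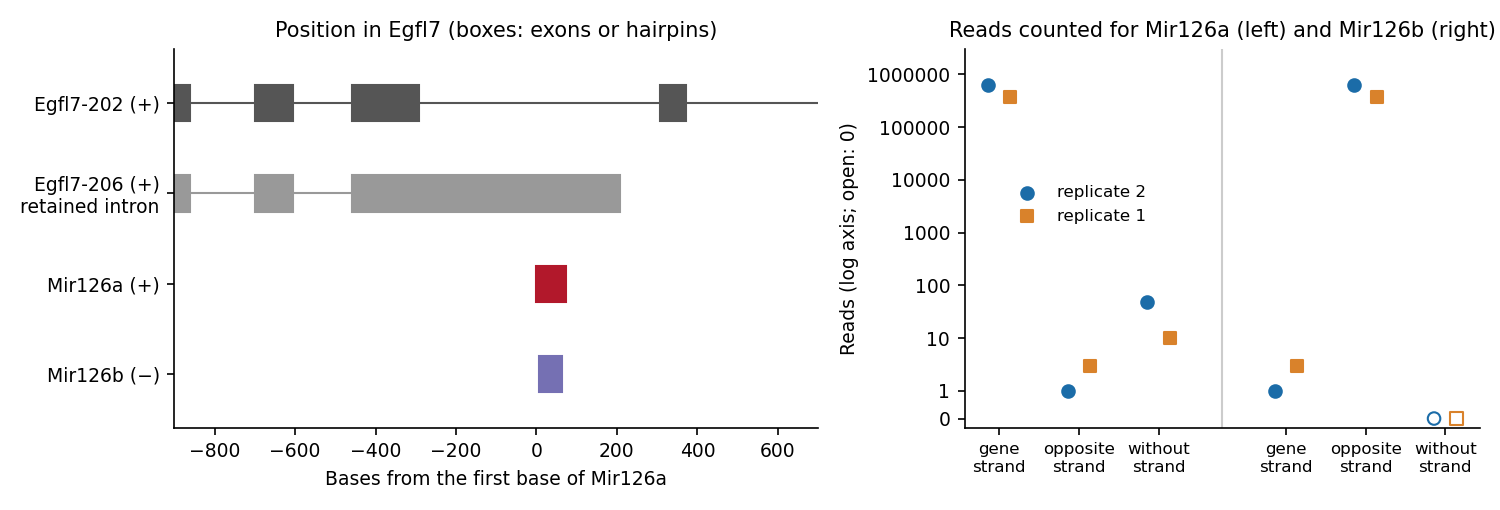
Left, the positions of Mir126a and Mir126b in Egfl7, in bases from the first base of Mir126a, with exons as boxes for 2 of the 19 Egfl7 transcripts. Right, the reads counted for each gene on its own strand, on the opposite strand and without strand, in replicates 2 and 1 on a log axis, where Mir126a had 631815 and 367778 reads on its own strand and Mir126b 1 and 3.

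Mir126a had 631815 gene-strand counts in replicate 2 and 367778 in replicate 1. This was 137860 CPM in replicate 2 and 86321 CPM in replicate 1, or 112091 ± 36443 CPM (SD, n = 2). The gene thus took 13.8% of the counts in replicate 2 (exact 95% Clopper-Pearson interval 13.75 to 13.82) and 8.63% in replicate 1 (8.605 to 8.659). These intervals, like all below, cover counting error only.

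By level Mir126a ranked 2 in replicate 2 and 3 in replicate 1. Mir378a, which lies in an intron of the mitochondrial coactivator gene Ppargc1b, ranked above it in both hearts. The level of Mir126a was 0.916 times that of Mir378a in replicate 2 and 0.559 times in replicate 1. Mirlet7i, a let-7 gene, had 81125 CPM in replicate 2 and 96474 CPM in replicate 1, so Mir126a stood at 1.70 times and 0.895 times its level. The order of Mir126a and Mirlet7i was thus opposite in the hearts, and their means differed by less than the SD of Mir126a. The means of Mir126a and Mir378a, which stood at 152441 ± 2742 CPM (SD, n = 2), differed by little more than the SD of Mir126a. Below Mirlet7i came Mirlet7g at 57357 ± 7585 CPM and Mir143 at 42774 ± 12489 CPM (SD, n = 2), both below Mir126a in each heart. Levels compare uniquely placed reads of different sequences, and 38.0% of the reads of replicate 2 and 38.9% of those of replicate 1 were placed at more than 1 position, so a gene with copies could rank higher than its counts show.

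Of the miRNA genes in the tables, 969 lie within a protein-coding gene on the same strand, and 165 of those were detected. Mir126a ranked 2 among these host-gene miRNAs by mean CPM, after Mir378a, and held 19.1% of their summed mean CPM.

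Mir126b had 1 count in replicate 2 and 3 in replicate 1, or 0.218 and 0.704 CPM. Both values lie at or under the limit that a count of 0 allows. That limit of 3 counts equals 0.655 CPM for replicate 2 and, for replicate 1, 0.704 CPM. No fold between the hearts is given for this gene. It failed the detection minimum and was not tested, as 1827 of the 2202 genes were not, while 540 genes had more summed counts than its 4. Gm23388, Mir5107, Mir6997 and Mir7070 had the same counts as Mir126b, 1 in replicate 2 and 3 in replicate 1, and Mir3962 and Mir6950, next above by mean CPM, had 0 and 4.

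**Figure D2:**
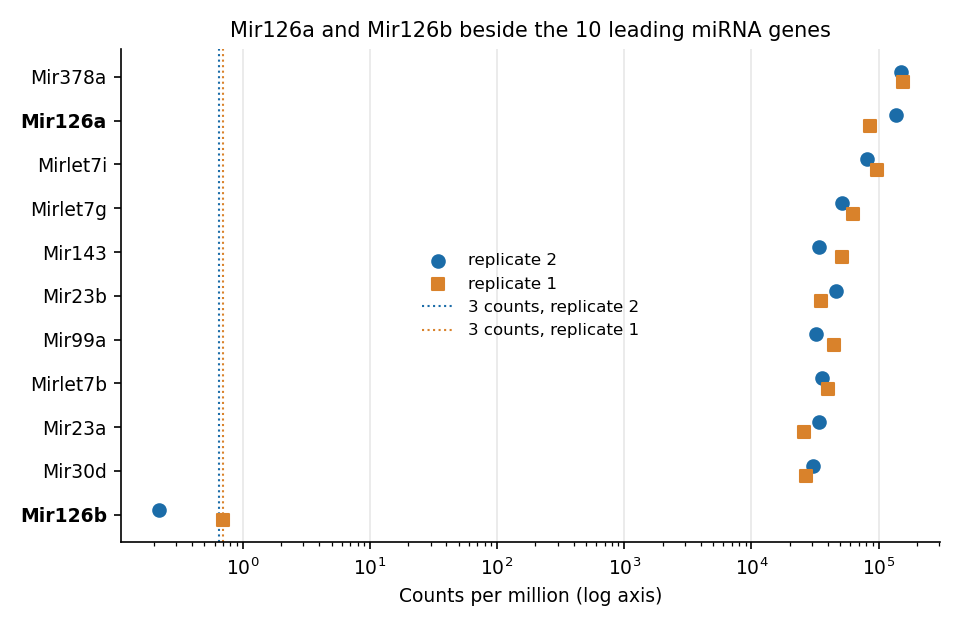
Levels of Mir126a, Mir126b and the other 9 of the 10 leading miRNA genes in CPM on a log axis, for replicate 2 (circles) and replicate 1 (squares), with dotted lines at 3 counts. Mir126a stands at 137860 and 86321 CPM, and Mir126b at 0.218 and 0.704 CPM, at or left of the lines.

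The 3 count columns hold the same reads counted in 3 ways. A match between the rows of the members follows from their overlap and is no check of the strand. Through the row of Mir126b, 631767 reads in replicate 2 and 367768 in replicate 1 lay on the strand opposite to that gene, which is the strand of Mir126a. These were 99.9924% and 99.9973% of the reads counted for Mir126a. The remaining 48 reads in replicate 2 and 10 in replicate 1 overlapped Mir126a, in its flanking 6 or 9 bases, but no base of Mir126b. The same 48 and 10 reads were all that Mir126a kept when strand was ignored, since a read over both genes is then ambiguous. Mir126b kept 0 in both hearts. Reads at this locus made up 42.9% of all ambiguous reads of the unstranded column in replicate 2 and 31.9% in replicate 1. The reads of Mir126b also appear as the opposite-strand reads of Mir126a, 1 in replicate 2 and 3 in replicate 1.

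As a share of the pair, Mir126b had 1.58 reads per 1000000 in replicate 2, with an exact 95% interval of 0.0401 to 8.82, and in replicate 1 it had 8.16 (1.68 to 23.8). Background from the wrong strand was measured in the 2138 genes with no miRNA gene opposite to them. These had 22.2 opposite-strand reads per 1000000 in replicate 2 (17.3 to 28.1) and 29.9 in replicate 1 (24.2 to 36.7), above the share of Mir126b in both hearts. That background was uneven: Mir122, Mir203 and Mir5620 gave 44.9% of its reads in replicate 2 and 38.7% in replicate 1. In the 16 such genes with 100000 or more summed counts the opposite strand had 0.448 reads per 1000000 in replicate 2 (0.0114 to 2.50) and 3.69 in replicate 1 (1.59 to 7.27). Of those 32 values, 30 were 0, and the other 2 belonged to Mirlet7b, with 1 and 8 reads. The intervals of Mir126b overlap those of the abundant genes in both hearts. Such overlap is no test, and Mirlet7b alone gave the reads of that background. Whether Mir126b was expressed above background was therefore not decided, and its counts were at or under the 3 that a count of 0 allows.

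The tables hold 32 pairs of miRNA genes that overlap on opposite strands, of which 24 had 20 or more counts in sum. The Mir126 pair had the second-most counts, after Mir378a and Gm25301. In 14 of the 24 pairs the lesser gene had 0 reads in both hearts, among them Gm25301, Gm25927 (opposite Mirlet7e), Mir30f (opposite Mir30e) and Gm24083 (opposite Mir191). Among the 10 pairs with any such reads, Mir126b had the lowest share. Depth fixed that rank. The Mir126 pair had 999597 counts in sum and the others of these pairs 8884 or fewer, so any read put them above it. Mir497b followed, with 1 read in each heart against 5638 and 3244 of Mir497. In 2 of the 24 pairs the lesser gene had more than 3 reads in both hearts. Mir3107 had 62 and 60 reads against 1368 and 1199 of Mir486, and Mir3074-1 had 74 and 102 against 390 and 435 of Mir24-1. The share of Mir3074-1 was 159483 reads per 1000000 in replicate 2 and 189944 in replicate 1. A share near that of Mir126b could be seen in few other pairs: in replicate 2 the upper limits were 5.35 reads per 1000000 for Gm25301, 66.4 for Gm25927 and 82.2 for Mir30f.

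**Figure D3:**
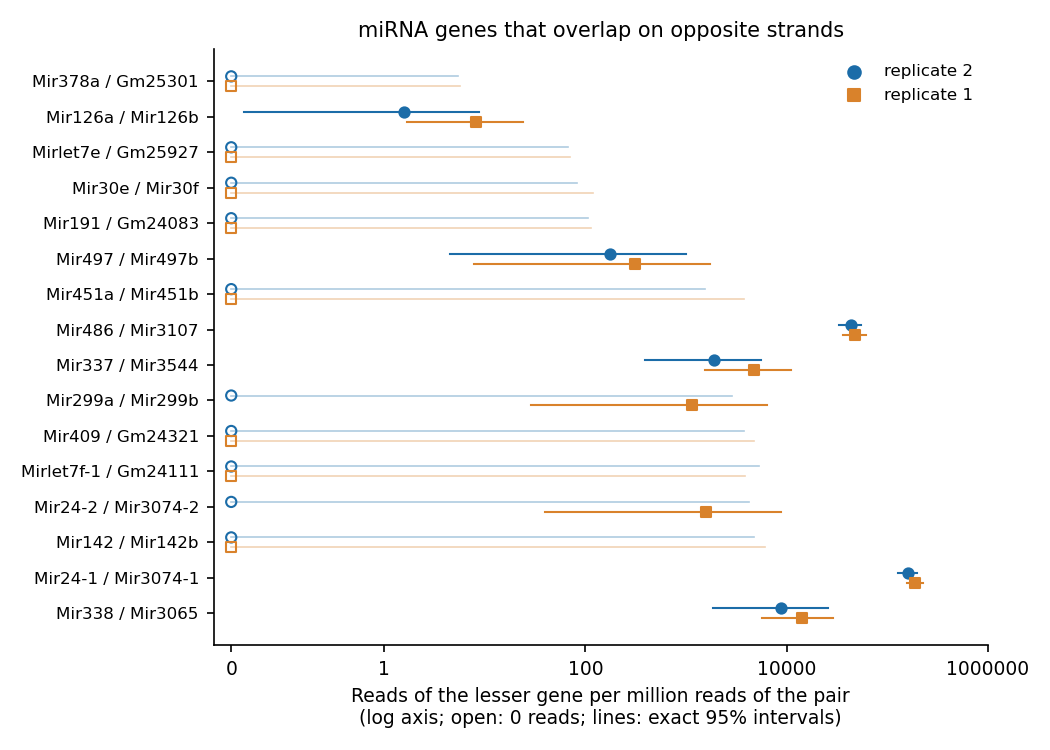
Reads of the lesser gene per 1000000 reads of the pair, on a log axis, for the 16 pairs with the most counts out of 24, in replicate 2 (circles) and replicate 1 (squares), with exact 95% intervals as lines and open symbols for 0 reads. Mir126b has the lowest share of the pairs with any reads, 1.58 and 8.16 reads per 1000000, while Mir3107 and Mir3074-1 lie at the right. Depth fixed that lowest rank, since the Mir126 pair had far more counts than the other pairs with any reads.

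Between the hearts, Mir126a was higher in replicate 2. Relative to trimmed mean of M values (TMM) library sizes the log2 ratio of replicate 2 over replicate 1 was 0.74 (exact 95% interval 0.736 to 0.748), a 1.67-fold difference. An exact two-sided binomial test of the counts gave an adjusted p (Benjamini-Hochberg over the 375 genes whose counts summed to 20 or more) too small to be represented. That test covers counting noise only, and 55.2% of all genes tested passed it, 26.1% as higher in replicate 2 and 29.1% as higher in replicate 1. The balance depended on the scaling, with 98 genes higher in replicate 2 and 109 in replicate 1 as given, 100 and 95 with DESeq2 size factors, and 85 and 128 with total counts. Of the 156 genes whose counts summed to 1000 or more, 140 passed, so passing does not set Mir126a apart.

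The ratio of Mir126a was not outside the spread of other genes. Of the tested genes, 78.1% had a smaller absolute log2 ratio, and of those with 1000 or more counts 82.1% did, with 13 genes higher in replicate 2 by a larger ratio. The median absolute log2 ratio was 0.37 over all tested genes and 0.31 over the 156. The coefficient of variation that edgeR estimated between the hearts, counting noise removed, was 0.314 in common for all genes and 0.325 for Mir126a. At the common value, a log2 ratio between 2 hearts has an SD of about 0.641. These are bulk heart samples, in which fewer cells of a type and less RNA per cell cannot be told apart.

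The libraries had 4583025 counts on named genes in replicate 2 and 4260561 in replicate 1, a net difference of 322464 counts. Mir126a alone differed by 264037 counts, beside gains and losses of other genes that partly cancel. Without Mir126a the totals were 3951210 in replicate 2 and 3892783 in replicate 1.

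The 5 genes whose ratio between the hearts was nearest to that of Mir126a, among those with 1000 or more counts, were Mir1306, Mir497, Mir148a, Mir423 and Mir15b. Likeness was the absolute difference of log2 ratios over 2 libraries, which ranged from 0.003 for Mir1306 to 0.035 for Mir15b. Mir1306 had 360.2 CPM in replicate 2 and 226 CPM in replicate 1. Mir423 had 2421 CPM in replicate 2 and 1545 CPM in replicate 1. With 2 libraries many genes can have like ratios, so the likeness describes these hearts only.

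**Figure D4:**
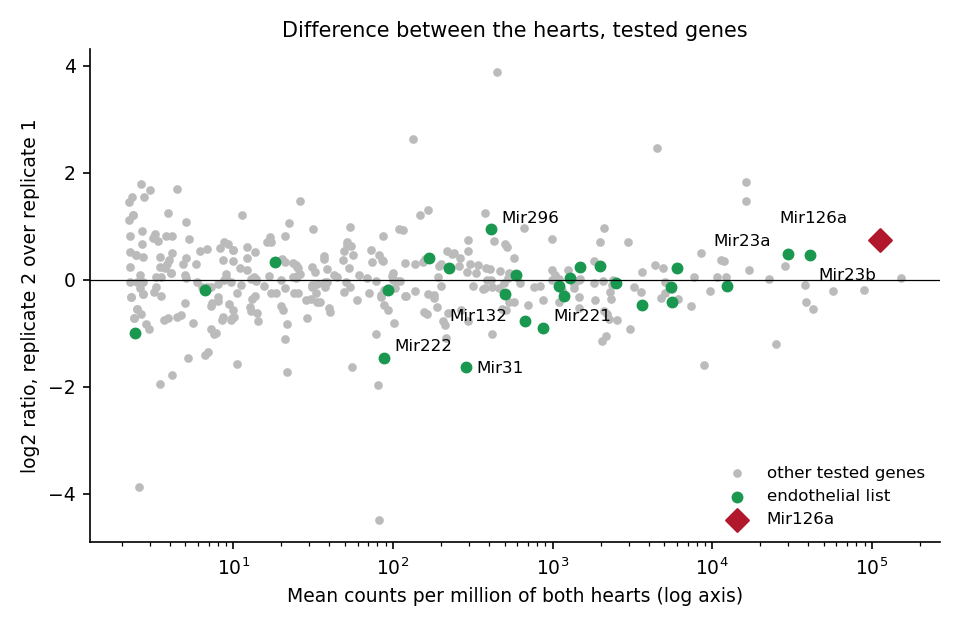
The log2 ratio of replicate 2 over replicate 1 against the mean CPM of both hearts (log axis) for the 375 tested genes, with Mir126a as a diamond and the other tested genes of the endothelial list in green. Mir126a lies at 0.74, Mir296 at 0.94, and Mir23a and Mir23b also above 0. Mir221, Mir222, Mir132 and Mir31 lie below 0.

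A list of 30 miRNA genes with published roles in endothelial cells or vessel growth, few of them particular to endothelium, gave the setting of Mir126a. All 30 were found and 26 detected. The median over all 30, detected or not, was 769 CPM. Over all detected genes, a set without those below the detection minimum, it was 85.1 CPM. The list summed to 262104 CPM in replicate 2 and 197139 CPM in replicate 1, of which Mir126a was 52.6% and 43.8%. Without Mir126a the sums were 124244 CPM in replicate 2 and 110818 CPM in replicate 1. Of 27 members tested, 9 passed as higher in replicate 2, 12 passed as higher in replicate 1 and 6 did not pass, with a median log2 ratio of -0.11, against -0.02 over all tested genes. The 9 include Mir126a itself, and these counts stand beside the 207 of 375 tested genes that passed, or 140 of the 156 with 1000 or more counts. Members thus passed in both directions. Mir296 was higher in replicate 2 by a larger ratio than Mir126a, with 530 CPM in replicate 2 and 289 CPM in replicate 1 (log2 ratio 0.94).

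Mir23b and Mir23a, of the paired miR-23, miR-27 and miR-24 clusters, followed Mir126a in level within the list and were higher in replicate 2 as well. Mir23b had 46454 CPM in replicate 2 and 35349 CPM in replicate 1 (log2 ratio 0.46), and Mir23a had 34283 and 25709 CPM (0.48). Their cluster mates Mir27b (0.22) and Mir24-2 (0.40) were higher in replicate 2, Mir27a (-0.12) was higher in replicate 1, and Mir24-1 had 85.1 CPM in replicate 2 and 102 CPM in replicate 1, with an adjusted binomial p of 0.0873. Mir322 (11656 CPM in replicate 2, 13196 CPM in replicate 1), Mir100 (4677 and 6538 CPM), Mir130a (5115 and 5854 CPM) and Mir17 (2960 and 4297 CPM) were higher in replicate 1.

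Mir221 and Mir222, which in human cells restrain the cell cycle inhibitor p27 and are used as further endothelial markers, went the other way from Mir126a. Mir221 had 589 CPM in replicate 2 and 1148 CPM in replicate 1 (log2 ratio -0.89), and Mir222 had 45.2 and 130.0 CPM (-1.46). Both are expressed beyond endothelium. Of the 4 endothelial markers 3 were detected, Mir126b being the exception, and the tables hold no messenger RNA by which the share of endothelial cells could be checked.

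Some markers of other cell types passed the same test and others did not, in a test that 55.2% of all genes tested passed (26.1% as higher in replicate 2, 29.1% as higher in replicate 1). The 3 erythroid genes summed to 1048 CPM in replicate 2 and 549.7 CPM in replicate 1, and all 3 passed as higher in replicate 2, Mir486 with a log2 ratio of 0.15. Mir144 and Mir451a are neighbours on chromosome 11 (78073005-78073070 and 78073170-78073241), so the 3 genes are not 3 separate loci. White blood cell genes summed to 3720 CPM in replicate 2 and 3607 CPM in replicate 1, with 2 of 5 passing as higher in replicate 2 and none as higher in replicate 1. Without Mir155, their leading gene, that sum turned to 2137 CPM in replicate 2 and 2201 CPM in replicate 1. Mir155 and Mir146 are also members of the endothelial list above. Smooth muscle and mural genes summed to 35952 CPM in replicate 2 and 53735 CPM in replicate 1, where Mir143 was higher in replicate 1 and Mir145a did not pass. Cardiac muscle genes summed to 6596 and 9699 CPM, with 1 of 6 tested members passing as higher in replicate 2 and 4 as higher in replicate 1, though several have near-identical copies. Fibroblast genes summed to 10331 CPM in replicate 2 and 18629 CPM in replicate 1, where 3 of 5 tested members passed as higher in replicate 2 and the rest as higher in replicate 1. Mir21a, which had 4247 CPM in replicate 2 and 13476 CPM in replicate 1, set the direction of that sum, and without it the fibroblast genes summed to 6084 CPM in replicate 2 and 5153 CPM in replicate 1. No marker of any of these lists was at 0 in both hearts, but not all reached the detection minimum. Of the cardiac muscle genes 6 of 7 did, without Mir133a-2, and of the fibroblast genes 5 of 6, without Mir199a-1. All genes of the smooth muscle and mural, white blood cell and erythroid lists did. Their part in the difference of Mir126a was not tested.

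Few annotated 3′ UTRs held a match to the seed of miR-126a-3p. The full match, CGGTACG, was sought on the transcript strand in the 3′ UTRs of 21001 genes, taking the longest 3′ UTR of each among the basic protein-coding transcripts of M21. It was present in 33 genes, or 0.157%. This was the lowest share of the 1398 distinct seeds of mouse miRNAs in the RefSeq table, whose median was 10.3%. The motif holds 2 CG dinucleotides. The match of miR-126b-3p, GGTACGC, which overlaps it by 6 letters, was in 0.457% of genes, and that of miR-126b-5p, GTAATAA, in 11.2%. The shorter match to bases 2 to 7 of miR-126a-3p, GGTACG, was in 599 genes, or 2.85%, against a median of 28.4% over 1134 such matches of 6 letters.

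**Figure D5:**
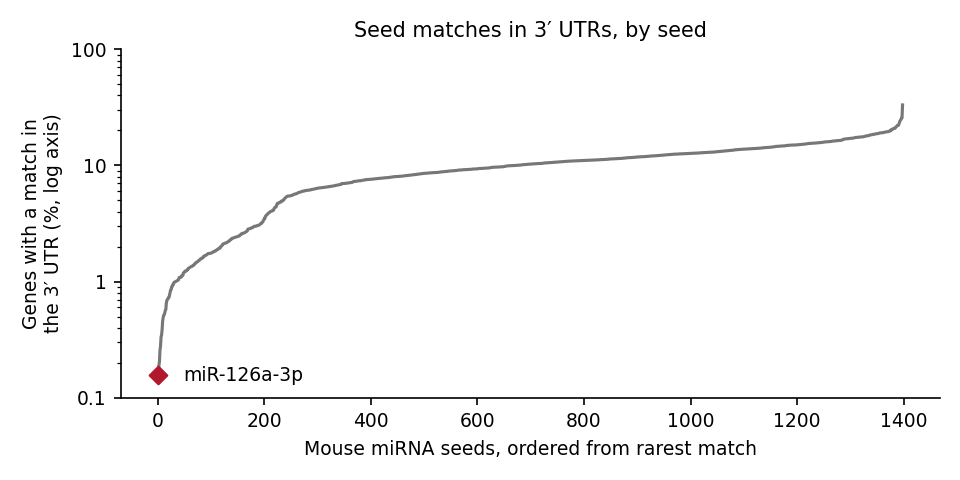
The percentage of 21001 genes whose 3′ UTR holds a match to the seed, on a log axis, for each of 1398 distinct mouse miRNA seeds ordered from the rarest. The diamond marks miR-126a-3p at 0.157%, the lowest value.

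The search also covered 6 genes reported as miR-126 targets in mouse, zebrafish or human cells (Spred1, Pik3r2, Vcam1, Rgs16, Irs1 and Crk). None held the 7-letter match CGGTACG in the longest annotated 3′ UTR, and 3 held the 6-letter match once. In each of these 3 sites an a follows the 6-letter match, opposite the u that opens miR-126a-3p. The sites thus hold GGTACGA, another match of 7 letters, which was not counted over all genes. The 3 sites are shown as the places where miR-126a-3p could pair, on mm10, in the sense of the transcript, with the 6-letter match in capitals.
Spred1, chr2:117178438-117178467, plus strand: gtttatatttaactaaatgtaaGGTACGaa
Irs1, chr1:82237487-82237516, minus strand: cacgtcttcctcttcagtagatGGTACGat
Crk, chr11:75703652-75703681, plus strand: cacttgtatttaccatattcagGGTACGaa
Spred1 restrains Ras signalling, Irs1 is a substrate of the insulin receptor, and Crk is an adaptor protein. A match is a description of the letters and no measure of repression, and messenger RNA was not measured here.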

How the data were processed

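MicroRNA-seq libraries of 2 hearts were analysed from the deposited tables of raw read counts, 1 table per library, made on mm10 with annotation M21 per the file headers. Which programs aligned and counted the reads is not given in the sources used here. The deposited tables each have 3 count columns (without strand, gene strand, opposite strand) for 2202 genes and 4 category rows, which were left out of library sizes. Replicate 2 held 10201509 reads, 44.9% on named genes, and replicate 1 held 10782737, 39.5% on named genes. Symbols, positions and hairpins were matched by ID to GENCODE M21.

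CPM and shares used gene-strand counts. Ratios used TMM factors (edgeR 4.0.16, R 4.3.3) and a prior count of 0.5. Genes whose counts summed to 20 or more entered an exact binomial test between libraries with Benjamini-Hochberg adjustment at 0.05. It was tried on simulated counts that held counting noise only, which does not show how it behaves with the spread between hearts. Shares carry exact 95% intervals, and a count of 0 allows 3 counts. DESeq2 1.42.0 size factors served as an alternative. Hairpins were folded with ViennaRNA 2.7.2. Python 3.11.15 was used with pandas 2.3.3, scipy 1.17.1, numpy 2.4.6, matplotlib 3.10.9 and statsmodels 0.14.6.

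The members and lists were chosen with earlier results of these data known. Named genes were both members, the 5 leading genes and the neighbours in rank, the 8 leading genes of the endothelial list, the 6 opposite-strand pairs with the most counts, the 5 genes nearest in ratio to Mir126a, and cell type markers. Mir24-1, Mir24-2, Mir27a, Mir132, Mir31, Mir296, the pairs of Mir486 and Mir24-1, Mirlet7b, Mir122, Mir203, Mir5620, Mir6405 and Mir6996, the reported targets and the motif searches were added after values were seen.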

Additional observations from a re-analysis of the deposited data

Results flagged for a closer look

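Reads outside the gene counts exceeded the 3 counts that a count of 0 allows. Reads placed at more than 1 position numbered 3872896 in replicate 2 and 4193785 in replicate 1. Reads outside annotated features numbered 499225 in replicate 2 and 507613 in replicate 1. Ambiguous reads of the column without strand came to 1474322 in replicate 2 and to 1153617 in replicate 1. Of these, 631768 and 367771 overlapped both Mir126a and Mir126b.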

How the results depend on the processing

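Of 41 alternatives other than leaving out a heart, 33 kept their value within the spread or their call, 8 moved and none reversed. That tally is no measure of robustness, since some entries could not change. The share of Mir126a is its CPM on another scale, and the opposite-strand column holds the same reads of the pair. The prior count does not enter the test, and the rank of the pair was set as unchanged. A ratio was taken as kept by its sign and call, whatever its size. Without strand, Mir126a stood at 9.33 CPM (0.000933% of counts), Mir126b at 0 CPM and the endothelial list at 167198 CPM, because reads over both strands' genes become ambiguous. With all reads as the denominator the values were 48021 CPM (4.80%) for Mir126a and 97823 CPM for the list, since the denominator is larger. The number of detected genes was 602 at 1 or more counts, against 346. The log2 ratio of Mir126a ranged from 0.68 with total counts to 0.78 with DESeq2 size factors, and was 2.17 over the 48 and 10 reads left without strand. Genes past the test between libraries numbered 179 to 213, against 207, and the share of them higher in replicate 2 was 39.9% with total counts and 51.3% with DESeq2 size factors, against 47.3%. Leaving out a heart gave 86321 to 137860 CPM (8.63% to 13.8%) for Mir126a, 0.218 to 0.704 CPM for Mir126b, 197139 to 262104 CPM for the list and 1.58 to 8.16 reads per 1000000 of the pair for Mir126b, which says nothing of stability with 2 hearts. The ratio of Mir126b was not computed, since both counts lie at or under the floor. No paired analysis was possible because the hearts form a single group. Depth limits genes near 0.655 CPM in replicate 2 and 0.704 CPM in replicate 1.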
